A study of Mus musculus with 6 samples.

Results

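The 42 genes described here encode the proteins that copy DNA in S phase and enzymes that supply its building blocks. They were chosen by name from the 54532 genes of the count table, and all 42 passed the filter on low counts. RNA came from cells picked with CD8 microbeads out of the marrow of CByB6F1 (F1 hybrid) female mice, 2 to 5 months old. Every mouse had immune bone marrow failure (BMF), in which T cells destroy blood-forming cells. Pools 1 to 3, called treated below, had received ruxolitinib, which blocks the cytokine signalling kinases JAK1 and JAK2, and pools 4 to 6 were untreated controls. Each pool joined 2 to 3 mice and gave 1 library, so p-values measure the spread between 3 pools a group. The sources used here do not state how the disease was induced, the dose or the time of treatment. The comparison asks how expression in the marrow cells picked with CD8 microbeads differed between treated and untreated mice.

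A cell copies its genome in ordered steps. Before S phase the origin recognition complex (ORC), CDC6 and CDT1 load the ring-shaped MCM helicase onto origins, a step called licensing. CDC45 and the GINS complex then switch the helicase on, primase and polymerase alpha start each strand, and polymerases epsilon and delta extend it while held by the sliding clamp PCNA. Many of these genes are transcribed under E2F factors as a cell enters the cycle, and in marrow they are used by dividing cells of any lineage, T cells and red cell precursors among them.

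Of the 42 genes 15 fell, 4 rose and 23 did not pass the test when libraries were scaled with TMM factors. The deepest falls were in Rpa3 (4.22-fold) and Rpa2 (3.85-fold), whose products coat single-stranded DNA, in the clamp loader gene Rfc5 (2.47-fold) and in the polymerase delta gene Pold2 (2.42-fold). The rises were in the licensing genes Cdc6 (2.37-fold) and Orc1 (2.12-fold), the ribonucleotide reductase gene Rrm2 (1.85-fold) and Fen1 (3.42-fold), a gene with few reads. A call is an edgeR quasi-likelihood test with Benjamini-Hochberg adjusted p under 0.05 over all 13480 genes tested. Calls made up 45.2% of the list and 55.2% of all genes tested. Lower calls were 35.7% of the list against 25.3% of all genes, and higher calls 9.52% against 29.9%. Groups did not overlap for 17 genes in the lower and 5 in the higher direction, where 30.3% and 35.7% of all genes tested did so. The list's median log2 fold change was -0.36 and that of all genes 0.03.

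**Figure D1:**
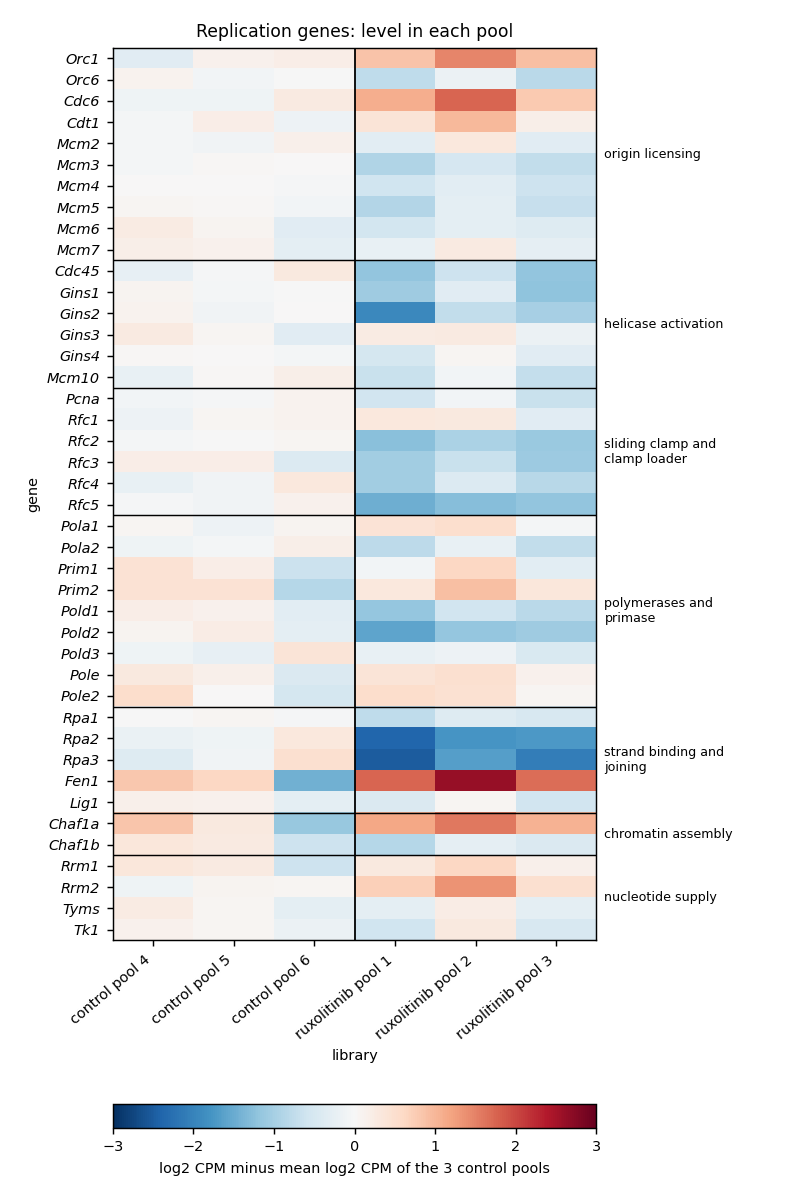
Level of the 42 replication genes (rows, by role) in the 6 pools (columns), as log2 CPM minus the mean log2 CPM of the 3 control pools, under TMM scaling. Rpa2, Rpa3, Rfc5 and Pold2 are low and Orc1, Cdc6, Fen1 and Rrm2 high in all 3 ruxolitinib pools, and ruxolitinib pool 2 is the highest of its group for 37 of the 42 genes; scaled to CD8 identity genes, Rfc5 and Pold2 turn positive.

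These directions are relative to TMM scaling. Scaled instead to the geometric mean of 17 CD8 T cell identity genes, 31 of the 42 genes were higher and 0 lower by edgeR (0 lower at an unadjusted p under 0.05 too), and 13 of the 15 falls turned positive, all but Rpa2 and Rpa3. That scaling moved the whole table: 9425 of the 13480 genes tested were higher and 76 lower. It moved the median of all genes tested to 1.96 and that of the list to 1.59. With haemoglobin genes removed and scaling by total count, 7 were higher and 8 lower. Cdt1, Pola1 and Chaf1a joined the higher genes, and Mcm3, Mcm4, Mcm5, Gins1, Rfc4, Pold1 and Rpa1 lost their lower calls. Of all 13474 genes tested that way 5106 were higher and 2236 lower, with a median of 0.36. Leaving out 1 pool at a time, the number lower ran from 8 (without treated pool 1) to 18 (without control pool 6). The number higher ran from 2 (without treated pool 2) to 5. Among all genes, 2306 of 14024 tested were lower without treated pool 1 and 3831 of 13959 without control pool 6. Without treated pool 2, 3454 of 13992 were higher. Falls of 8 genes (Cdc45, Gins2, Rfc2, Rfc3, Rfc5, Pold2, Rpa2 and Rpa3) and rises of 2 (Orc1 and Cdc6) held whichever pool was left out. The matching share over all genes is not given here, so these counts have no background beside them.

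**Figure D2:**
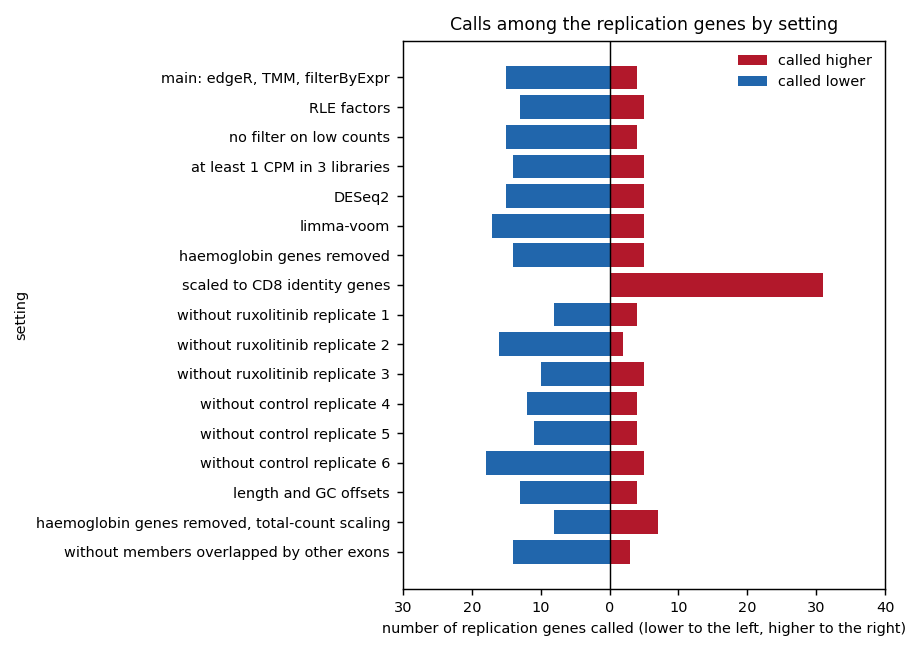
Number of the 42 replication genes called lower (bars to the left) and higher (bars to the right) under each setting of the analysis. The setting without members overlapped by other exons counts 39 genes. TMM scaling gave 15 lower and 4 higher, and scaling to CD8 identity genes gave 0 lower and 31 higher. Of all 13480 genes tested the latter called 76 lower and 9425 higher.

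Markers of cell content differed between the groups, and their part in the values of the replication genes was not tested. The summed level of the 17 CD8 T cell identity genes was 10637 to 12893 CPM (counts scaled to library size with TMM factors) in controls and 1911 to 5423 CPM in treated pools, highest in pool 3. Of these 17 genes 16 fell, and Cd8a was detected in every library. All 14 erythroid markers rose (1868 to 2693 CPM summed in controls, 125320 to 245550 CPM treated). B lineage markers rose for 10 of 11 tested (204 to 262 against 1016 to 1587 CPM), with Ms4a1, Pax5, Igll1 and Rag1 among those at 0 in every control pool. Granulocyte markers rose for 6 of 10 and Prtn3 fell (1552 to 5989.7 against 8350.5 to 19237 CPM), and monocyte and macrophage markers rose for 9 of 10 and Ccr2 fell (1042 to 1384 against 7691 to 12609 CPM). Progenitor markers rose for 5 of 7 tested (14.2 to 20.0 against 150.1 to 317 CPM), with Flt3 at 0 in every control pool. Plasmacytoid dendritic cell markers rose for 5 of 6 and Bst2 fell (325 to 373 against 276 to 329 CPM), with Siglech and Spib at 0 in every control pool. Megakaryocyte markers rose for 4 of 6 tested (21.5 to 51.5 against 34.5 to 63.4 CPM). In such mixed samples fewer cells of a type and less RNA per cell cannot be told apart.

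Summed over the 42 genes, treated pools 1 to 3 held 3531, 4961 and 3561 CPM and control pools 4 to 6 held 5199, 5212 and 4969 CPM. Treated pool 2 came close to the lowest control pool without reaching it, and treated pools 1 and 3 lay well below. The means were 4018 ± 817 CPM treated and 5126 ± 137 CPM untreated (SD, n = 3 each), a ratio of 0.784. As a share of counts other than haemoglobin, the genes took 0.442, 0.573 and 0.465% in treated pools and 0.532, 0.508 and 0.481% in controls, and on that scale the groups overlapped. Pool 2 was the highest treated pool for 37 of the 42 genes and the lowest for 0. Among the marker sums, pool 2 led the treated pools for the B lineage, monocyte and macrophage, progenitor (mostly Lmo2) and megakaryocyte lists. It did not for the CD8 identity, erythroid, granulocyte or plasmacytoid dendritic cell lists. Sums weigh the most abundant markers. By geometric mean pool 2 led for the erythroid list (1867 CPM, against 1676 and 958 CPM in pools 1 and 3). By that mean it led for the progenitor, megakaryocyte and plasmacytoid dendritic cell lists too. It did not for the CD8 identity, B lineage, granulocyte or monocyte and macrophage lists.

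Among the 10 licensing genes the loaders Orc1 and Cdc6 rose, the ring genes Mcm3, Mcm4 and Mcm5 fell under TMM scaling but not when scaled to CD8 identity genes, and 5 did not pass. Cdc6, which brings the MCM ring to ORC, stood at 66.4, 105 and 54.4 CPM in treated pools 1 to 3, against 28.5, 28.7 and 37.8 CPM in control pools 4 to 6. Orc1, the gene of the largest ORC subunit, stood at 15.4, 23.5 and 15.8 CPM treated, against 6.75, 9.28 and 9.83 CPM untreated. For both genes each treated pool exceeded each control pool, and pool 2 was the highest. The log2 fold change was 1.25 ± 0.27 (SE) for Cdc6 (edgeR adjusted p = 0.00358) and 1.08 ± 0.27 for Orc1 (edgeR adjusted p = 0.00775). Both calls held under all settings tried. A rise could hardly be lost under CD8 identity scaling, which called 9425 of the 13480 genes tested higher. Cdc6 lies on chromosome 11 at 98907801 to 98923940 and Orc1 on chromosome 4 at 108579423 to 108614833 (mm10, as deposited; all 42 genes are protein-coding). Orc6, another ORC subunit gene, had -0.56 ± 0.22 (adjusted p = 0.0540 by edgeR), which passed if treated pool 2 (0.0191) or control pool 6 (0.0469) was left out, with limma-voom (0.0395) and with no filter on low counts (0.0481). Cdt1, the other loading factor gene, had 0.54 ± 0.24 (adjusted p = 0.0849 by edgeR, and 0.0459 without treated pool 3).

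The ring is built of 6 related subunits, MCM2 to MCM7, and their genes took different values. Mcm5, with the highest level per kilobase of the licensing genes, stood at 180.3, 272 and 209 CPM treated, against 347, 343 and 315 CPM untreated. Mcm3 stood at 152, 199.99 and 170.2 CPM treated, against 271, 290.1 and 286 CPM untreated. Treated pools were all below control pools in both genes. By edgeR, Mcm3 (-0.70 ± 0.20, adjusted p = 0.0157), Mcm5 (-0.60 ± 0.23, adjusted p = 0.0439) and Mcm4 (-0.50 ± 0.19, adjusted p = 0.0493) passed. The Mcm3 call was lost without treated pool 1 (0.0720) or control pool 5 (0.0607), and the Mcm5 call without treated pool 1 (0.157) or 3 (0.0875) or control pool 4 (0.106) or 5 (0.117). The Mcm4 call held when control pool 6 was left out and was lost when any other pool was, and adjusted p was 0.0531 to 0.147 without each other pool and 0.135 with length and GC offsets. It was lost also with RLE factors (0.0544), no filter (0.0906), a filter of 1 CPM in 3 libraries (0.0513) or haemoglobin genes removed (0.0501). Mcm6 had -0.44 ± 0.23, which passed without control pool 6 (0.0252). Mcm2 (-0.09 ± 0.24) and Mcm7 (-0.07 ± 0.24) had overlapping groups.

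Promoters were searched for the sequence that E2F factors bind, which is a known regulatory feature of this gene class. RefSeq windows (GRCm38.p6, the assembly of mm10) of 250 bases before the start were found for 35 of the 42 genes. The 4 spellings searched on both strands were TTTCCCGC, TTTGGCGC, TTTCGCGC and TTTGCCGC, and matches on opposite strands can overlap. A match was found in 8 of 35 members (22.9%), in 446 of 20480 promoters of all matched genes (2.18%) and in 344 of 9803 promoters of tested genes (3.51%). The genes were Orc1 and Cdc6, which rose, Mcm5 and Rfc3, which fell under TMM scaling but not when scaled to CD8 identity genes, and Mcm6, Mcm7, Gins3 and Pola1, which did not pass. CCAAT, either strand, was in 62.9% of members and 36.7% of tested genes, and GGGCGG, the GC box, in 68.6% and 58.7%. With the 50 bases after the start included, 13 of 35 members (37.1%) held an E2F-type match. The shares were 2.63% of all matched genes and 4.2% of tested genes. Among the 13 were 2 of 4 higher members, 4 of 11 matched lower members and 7 of 20 matched members that did not pass. A match describes letters and not a bound site. The stretches of 30 bases that hold the E2F-type matches before the start follow, 5′ to 3′ on the gene's strand, with the match in capitals.
Orc1, chr4:108579416-108579445, plus strand: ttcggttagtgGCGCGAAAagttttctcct
Cdc6, chr11:98908002-98908031, plus strand: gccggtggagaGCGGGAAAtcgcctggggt
Mcm5, chr8:75109347-75109376, plus strand: gccaagaacTTTCGCGCCAAAacgtccagc
Mcm6 distal, chr1:128359795-128359824, minus strand: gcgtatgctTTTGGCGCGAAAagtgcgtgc
Mcm6 proximal, chr1:128359734-128359763, minus strand: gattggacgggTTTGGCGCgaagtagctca
Mcm7, chr5:138172030-138172059, minus strand: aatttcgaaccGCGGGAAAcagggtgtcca
Gins3, chr8:95633507-95633536, plus strand: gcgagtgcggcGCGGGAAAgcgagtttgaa
Rfc3, chr5:151651209-151651238, minus strand: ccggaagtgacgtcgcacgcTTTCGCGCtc
Pola1, chrX:93632275-93632304, minus strand: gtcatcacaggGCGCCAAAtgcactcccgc

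In Mcm5 and in the distal match of Mcm6 a match on each strand joins into 12 bases, and in the others the match has 8. In Orc1, Cdc6, Mcm7, Gins3 and Rfc3 the match lies inside the deposited gene, whose start is upstream of the RefSeq one. The wider Mcm6 promoter is shown with its E2F-type matches in capitals. Those of Rpa2 and Rrm2, a fall and a rise under TMM scaling, held none of the 4 spellings in this window, and are shown up to the deposited gene with CCAAT boxes of either strand in capitals.
Mcm6, chr1:128359706-128359955, minus strand: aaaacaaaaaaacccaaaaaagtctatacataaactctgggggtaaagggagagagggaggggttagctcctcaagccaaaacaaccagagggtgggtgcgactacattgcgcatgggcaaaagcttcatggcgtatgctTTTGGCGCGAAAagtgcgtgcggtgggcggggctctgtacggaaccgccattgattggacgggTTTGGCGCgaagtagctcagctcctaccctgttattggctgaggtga
Rpa2, chr4:132768110-132768331, plus strand: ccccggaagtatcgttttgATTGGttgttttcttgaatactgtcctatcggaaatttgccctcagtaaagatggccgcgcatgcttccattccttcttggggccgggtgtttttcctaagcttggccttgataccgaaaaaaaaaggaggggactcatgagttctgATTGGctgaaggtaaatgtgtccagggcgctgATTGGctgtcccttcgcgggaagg
Rrm2, chr12:24708004-24708240, plus strand: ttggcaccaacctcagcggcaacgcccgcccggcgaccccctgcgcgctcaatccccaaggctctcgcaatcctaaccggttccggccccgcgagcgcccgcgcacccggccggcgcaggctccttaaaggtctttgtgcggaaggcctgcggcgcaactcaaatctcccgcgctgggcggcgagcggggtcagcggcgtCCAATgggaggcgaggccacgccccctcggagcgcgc

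Of the 6 genes that switch the loaded helicase on, Cdc45, Gins1 and Gins2 fell under TMM scaling (positive when scaled to CD8 identity genes), and Gins3, Gins4 and Mcm10 did not pass. Cdc45, which joins the MCM ring and GINS into the working helicase, stood at 28.1, 41.0 and 27.9 CPM treated, against 53.3, 61.6 and 77.8 CPM untreated. Gins2 stood at 10.01, 23.0 and 19.1 CPM treated, against 40.8, 35.7 and 38.3 CPM untreated. Gins1 stood at 15.7, 25.7 and 14.3 CPM treated, against 34.4, 31.4 and 32.5 CPM untreated. No treated pool reached a control pool in any of the 3 genes, and Gins2 was lowest in pool 1. Log2 fold changes were -0.99 ± 0.24 for Cdc45 (edgeR adjusted p = 0.00601), -1.14 ± 0.29 for Gins2 (adjusted p = 0.00865) and -0.82 ± 0.26 for Gins1 (adjusted p = 0.0215). The Gins1 call was lost without treated pool 1 (0.0803) or 3 (0.0693) and with length and GC offsets (0.0908). Gins2 shares 67.3% of its exon bases with the opposite-strand gene Gse1, and as the strand setting of the counting is unknown here, their reads cannot be told apart. Gins4, with the highest level per kilobase of this group, stood at 36.0, 53.8 and 41.1 CPM treated, against 53.5, 52.5 and 49.8 CPM untreated. Treated pool 2 lay above all controls, and Gins4 did not pass (-0.25 ± 0.21, edgeR adjusted p = 0.322). The 4 genes of the GINS complex thus ran from -1.14 in Gins2 to 0.10 in Gins3. Mcm10, which helps the helicase to start, had -0.47 ± 0.24 (edgeR adjusted p = 0.118, and 0.0411 without treated pool 2). With length and GC offsets it passed at -0.93 ± 0.25 (edgeR adjusted p = 0.0113).

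The clamp loader, replication factor C, opens the PCNA ring and closes it around DNA. Its small subunit genes Rfc2, Rfc3, Rfc4 and Rfc5 all fell under TMM scaling and turned positive when scaled to CD8 identity genes, while the large subunit gene Rfc1 (0.12 ± 0.23) and Pcna did not pass. Rfc5 stood at 41.5, 47.4 and 50.7 CPM treated, against 112, 107 and 125 CPM untreated. Rfc2 stood at 80.5, 100.1 and 89.3 CPM treated, against 185, 191 and 199 CPM untreated. Rfc3 stood at 21.8, 28.2 and 21.1 CPM treated, against 51.3, 51.6 and 33.9 CPM untreated. The groups were apart in each, and for Rfc3 control pool 6 was the nearest to the treated pools. Log2 fold changes were -1.30 ± 0.19 for Rfc5 (edgeR adjusted p = 0.000407), -1.09 ± 0.19 for Rfc2 (adjusted p = 0.00110) and -0.94 ± 0.24 for Rfc3 (adjusted p = 0.00773). With offsets for gene length and GC content the Rfc3 call was lost (0.0660), as was that of Rfc4 (0.305). Rfc4 had -0.75 ± 0.24 (edgeR adjusted p = 0.0249), and its call was lost also without treated pool 1 (0.108) or 3 (0.0671). Pcna, with the highest level per kilobase of all 42 genes, stood at 357, 506 and 335 CPM treated, against 505, 519 and 572 CPM untreated. Treated pool 2 reached the control range, and Pcna did not pass (-0.41 ± 0.24, edgeR adjusted p = 0.164).

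**Figure D3:**
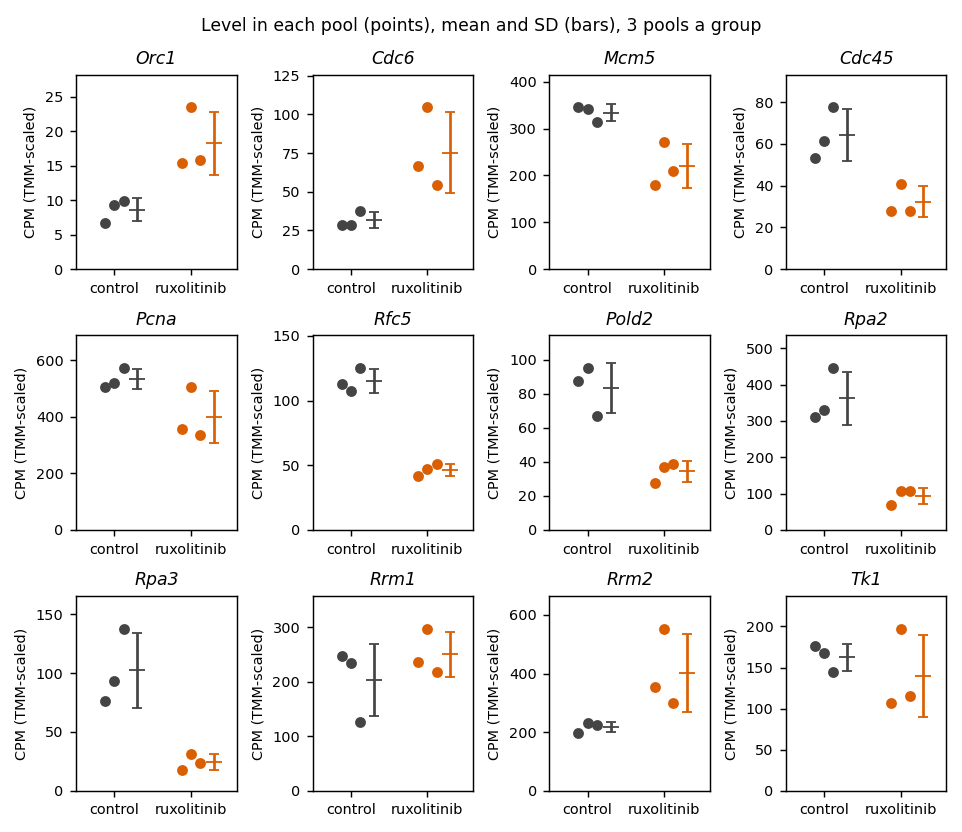
TMM-scaled CPM of 12 replication genes in each pool (points), with the mean and SD of 3 pools a group (bars), on axes that start at 0. Groups are apart for Orc1, Cdc6, Mcm5, Cdc45, Rfc5, Pold2, Rpa2, Rpa3 and Rrm2, and overlap for Pcna, Rrm1 and Tk1.

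Of the 9 genes of polymerases and primase, Pold1 and Pold2 fell under TMM scaling (positive when scaled to CD8 identity genes), and 7 did not pass. Both belong to polymerase delta, which copies mainly the lagging strand. Pold2, an accessory subunit gene, stood at 27.3, 36.8 and 38.9 CPM treated, against 87.3, 95.1 and 66.8 CPM untreated. Pold1, the catalytic subunit gene, stood at 48.1, 72.8 and 61.7 CPM treated, against 123, 118 and 86.4 CPM untreated. Neither gene had overlapping groups. Log2 fold changes were -1.27 ± 0.23 for Pold2 (edgeR adjusted p = 0.00122) and -0.84 ± 0.23 for Pold1 (adjusted p = 0.0115, and 0.0530 without treated pool 1). Pola2, a subunit gene of polymerase alpha, stood at 42.7, 62.8 and 44.0 CPM treated, against 67.1, 70.6 and 83.2 CPM untreated. Its groups were apart too, but it did not pass (-0.56 ± 0.22, edgeR adjusted p = 0.05001). It passed without treated pool 2 (0.0237), with limma-voom (0.0399) and with no filter on low counts (0.0457). The remaining 6 had overlapping groups, with log2 fold changes of -0.30 ± 0.22 for Pold3, 0.30 ± 0.22 for Pola1, the catalytic gene of polymerase alpha, 0.31 ± 0.25 and 0.29 ± 0.33 for the polymerase epsilon genes Pole and Pole2, and 0.06 ± 0.33 and 0.44 ± 0.34 for the primase genes Prim1 and Prim2. Control pool 6 was the lowest of the 6 libraries for Prim1, Prim2, Pole and Pole2.

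Genes of strand binding and joining held both extremes of the list. Rpa1, Rpa2 and Rpa3, for the subunits of replication protein A that coats single-stranded DNA, fell under TMM scaling, while Rpa1 turned positive when scaled to CD8 identity genes. Rpa2 stood at 68.5, 106 and 108 CPM treated, against 312, 330.3 and 446 CPM untreated. Rpa3 stood at 17.6, 31.5 and 23.7 CPM treated, against 76.5, 93.0 and 138 CPM untreated. The groups lay far apart in both genes, with control pool 6 the highest. Log2 fold changes were -1.95 ± 0.26 for Rpa2 (edgeR adjusted p = 0.000300) and -2.08 ± 0.29 for Rpa3 (adjusted p = 0.000375), and both calls held under each setting but CD8 identity scaling. There Rpa2 had -0.12 ± 0.55 (edgeR adjusted p = 0.845) and Rpa3 -0.22 ± 0.56 (adjusted p = 0.730). Rpa1, the large subunit gene, had -0.53 ± 0.20 (edgeR adjusted p = 0.0480), and its call held when control pool 6 was left out and was lost when any other pool was (0.0622 to 0.183 without each other pool). With RLE factors (adjusted p = 0.0503 by edgeR) and with no filter (0.0794) it was lost too. Rpa2 lies on chromosome 4 at 132768332 to 132778752 and Rpa3 on chromosome 6 at 8255936 to 8259173 (mm10).

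Fen1, the nuclease gene that trims lagging-strand fragments, had 62, 109 and 68 counts in treated pools 1 to 3 and 43, 32 and 8 in control pools 4 to 6. In CPM these were 4.53, 8.28 and 4.29 against 2.38, 2.09 and 0.498, with the groups apart and control pool 6 far below the others. The log2 fold change was 1.77 ± 0.55 (edgeR adjusted p = 0.0206), and the call was lost without treated pool 2 (0.0995). Of its exon bases 84.2% overlap Tmem258 and Gm10143 on the opposite strand, so reads of these genes cannot be told apart. Lig1, the ligase gene that seals the fragments, had -0.30 ± 0.24 and overlapping groups.

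Neither gene of chromatin assembly factor 1, which places histones on new DNA, passed. Chaf1a stood at 36.9, 49.2 and 33.8 CPM treated, against 29.3, 20.3 and 7.47 CPM untreated. Chaf1b stood at 26.2, 39.0 and 34.8 CPM treated, against 59.7, 57.0 and 30.7 CPM untreated. Control pool 6 was the lowest control in both, with groups apart for Chaf1a and overlapping for Chaf1b. Chaf1a had 1.07 ± 0.41 (edgeR adjusted p = 0.0503), and passed without control pool 4 (0.00772) or 6 (0.0378) and with DESeq2 (adjusted p = 0.0171), limma-voom (0.0277), RLE factors (0.0397), a filter of 1 CPM in 3 libraries (0.0497) or haemoglobin genes removed (0.0485). With offsets for length and GC content it had 0.20 (adjusted p = 0.682 by edgeR), and 52.5% of its exon bases overlap Ubxn6 on the opposite strand. Chaf1b had -0.56 ± 0.28 (edgeR adjusted p = 0.117, and 0.00763 without control pool 6).

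Of the 4 nucleotide supply genes Rrm2 rose and the others did not pass. Ribonucleotide reductase turns ribonucleotides into deoxynucleotides, with a large subunit from Rrm1 and a small subunit from Rrm2 that is made in S phase. Rrm2 stood at 355, 553 and 301 CPM treated, against 198, 229.6 and 224 CPM untreated. Rrm1 stood at 236, 297 and 218 CPM treated, against 247, 234 and 127 CPM untreated. Tk1, the thymidine kinase gene of dividing cells, stood at 107, 197 and 115 CPM treated, against 176, 168 and 144 CPM untreated. Groups were apart for Rrm2 alone of the 3, and treated pool 2 was the highest library for each. Rrm2 had 0.89 ± 0.27 (edgeR adjusted p = 0.0172), and its call was lost without treated pool 2 (0.0692) or control pool 4 (0.0519). Rrm1 had 0.30 ± 0.28 (edgeR adjusted p = 0.380), Tk1 -0.22 ± 0.26 (adjusted p = 0.501) and the thymidylate synthase gene Tyms -0.12 ± 0.23 (adjusted p = 0.689). With length and GC offsets Tk1 passed at -0.69 ± 0.26 (edgeR adjusted p = 0.0499), and it had 0.0850 with total-count scaling without haemoglobin genes. Rrm2 lies on chromosome 12 at 24708241 to 24714146 (mm10).

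**Figure D4:**
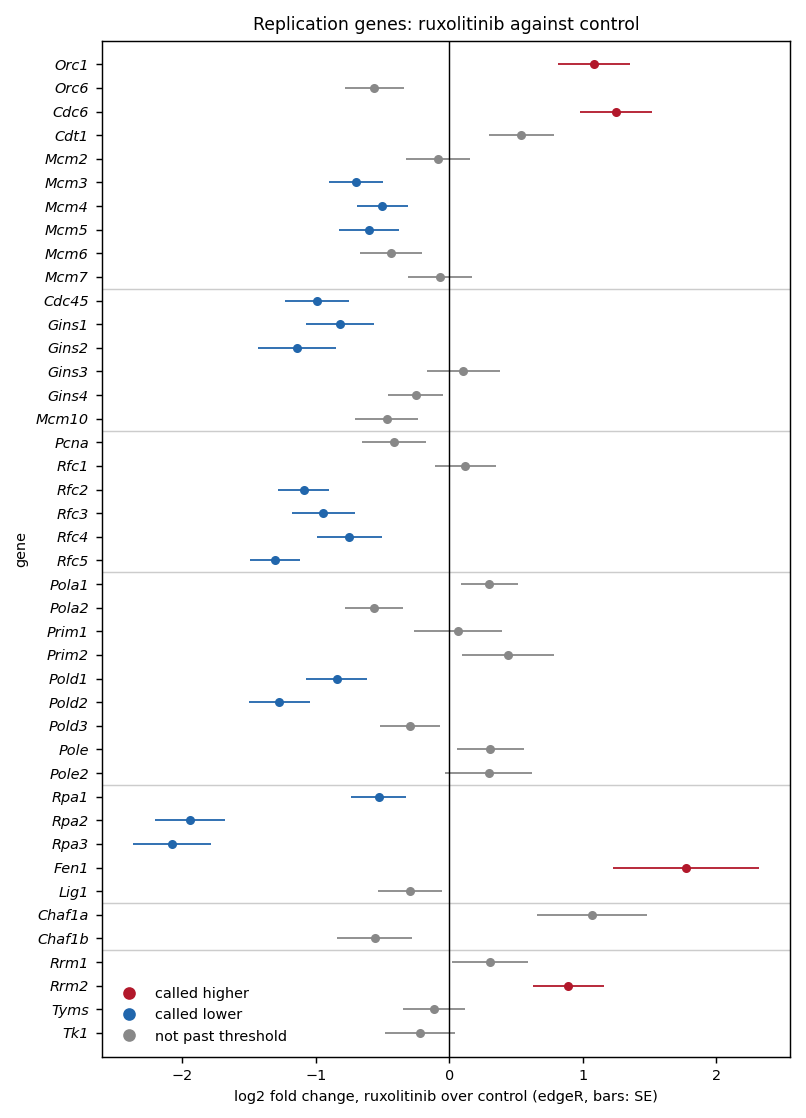
Log2 fold change, ruxolitinib over control under TMM scaling, of the 42 genes in role order (points), with the SE (bars) and the call (colour). The 15 lower calls reach -2.08 in Rpa3 and the 4 higher calls 1.77 in Fen1; 13 of the 15 turn positive when scaled to CD8 identity genes.

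A ratio of 2 genes within a library does not depend on how libraries are scaled. The pairs were chosen after the values were seen and are given with no test, per kilobase of gene length. Division by length does not remove a trend with length that differs between libraries. Per doubling of length, log2 CPM of tested protein-coding genes changed by 0.088 to 0.25 in treated pools and by -0.17 to -0.126 in controls. Orc1, Cdt1 and Pole are longer than their partners, and Rpa2 and Rrm2 shorter. The part of this trend in the ratios was not tested. Orc1 over Orc6 was 0.338, 0.346 and 0.361 in treated pools, against 0.0814, 0.127 and 0.128 in controls. Cdt1 over Gmnn, the gene of its inhibitor geminin, was 1.46, 1.36 and 1.26 in treated pools, against 0.509, 0.526 and 0.511 in controls. Both ratios were higher in each treated pool than in any control pool. Pole over Pold1 was 0.205, 0.144 and 0.135 in treated pools, against 0.0746, 0.0710 and 0.0643 in controls. Rpa2 over Rpa1 was 0.859, 1.01 and 1.10 in treated pools, against 2.30, 2.35 and 3.37 in controls. The first of these was higher and the second lower in each treated pool, with no overlap. Rrm2 over Rrm1 was 5.97, 7.397 and 5.49 in treated pools, against 3.18, 3.89 and 7.05 in controls, where control pool 6 lay inside the treated range.

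Levels of different genes were compared as mean CPM per kilobase over the groups. Pcna was the highest at 194, followed by Rrm2 at 112 and Rpa2 at 76.4, and Fen1 (1.52) and Pole (1.78) were the lowest. Log2 fold change and gene length had a Spearman's rho of 0.29 across the 42 genes and 0.26 across all 13480 tested, as a description over genes that share the same libraries. Members shorter than the median of 4045 bases had a median log2 fold change of -0.56 and longer ones -0.22 under TMM scaling. Relative to each gene's mean over libraries, log2 CPM of tested protein-coding genes changed by 0.0880 to 0.25 per doubling of length in treated pools and by -0.17 to -0.126 in controls. With offsets for length and GC content 4 members were higher and 13 lower. Of all 13480 genes tested 3778 were higher and 3504 lower with these offsets.

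Other genes of DNA replication divided in both directions. Of 39, 5 rose, 9 fell and 25 did not pass, where 29.9% of all genes tested rose and 25.3% fell. The log2 fold changes of the 39 had their median at -0.01 under TMM scaling and 1.99 when scaled to CD8 identity genes. Top1, which relaxes DNA ahead of the fork, rose (1.11 ± 0.21, edgeR adjusted p = 0.00161), as did Donson (0.75 ± 0.20), Ticrr (1.03 ± 0.29) and Orc2 (0.78 ± 0.22), genes of origins and their firing, and Chtf18 (0.87 ± 0.33). Pole4, a polymerase epsilon subunit gene, fell under TMM scaling (-1.33 ± 0.20, edgeR adjusted p = 0.000541), as did Rnaseh1 (-1.26 ± 0.25), Rnaseh2c (-1.25 ± 0.28) and Rnaseh2b (-1.06 ± 0.25), whose enzymes cut RNA paired with DNA, and all 4 turned positive when scaled to CD8 identity genes. Gmnn fell as well (-0.86 ± 0.24, edgeR adjusted p = 0.0123, positive when scaled to CD8 identity genes). Gmnn and Chtf18 were picked after their values were seen. Exons of Orc2 and Rnaseh2c overlap opposite-strand genes over 29.8% and 24.8% of their bases. The 9 lower calls became 5 without treated pool 1, and the 5 higher calls became 2 without treated pool 2 and 3 without control pool 5. Left out singly, treated pool 2 ended the calls of Ticrr (0.0717) and Orc2 (0.0678), treated pool 1 that of Gmnn (0.0532) and control pool 5 that of Donson (0.0525), and length and GC offsets ended that of Ticrr (adjusted p = 0.324 by edgeR). The Chtf18 call held when control pool 4 was left out and was lost when any other pool was (0.0542 to 0.186), as with length and GC offsets (adjusted p = 0.190 by edgeR).

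Nucleotide synthesis genes outside the list of 42 were mostly lower. Of 36 tested 26 fell, 2 rose and 8 did not pass, where 25.3% of all genes tested fell and 29.9% rose. The median of the 36 was -0.93 under TMM scaling. It became 0.98 when scaled to CD8 identity genes, below the 1.96 of all genes. All 5 folate genes, which carry one-carbon units, fell, with 11 of 14 purine, 3 of 6 pyrimidine and 7 of 11 deoxynucleotide genes. Dut, which removes dUTP and keeps uracil out of DNA, went from 546 ± 62.0 CPM untreated to 94.9 ± 23.7 CPM treated (SD, n = 3 each). Its log2 fold change was -2.52 ± 0.26 (edgeR adjusted p = 7.54e-05), beside -2.59 ± 0.31 for the nucleoside diphosphate kinase gene Nme1 (adjusted p = 0.000150) and -2.18 ± 0.27 and -1.39 ± 0.24 for the folate genes Shmt1 and Mthfd1l. Scaled to CD8 identity genes, Mthfd1l turned positive and Dut (-0.71), Nme1 (-0.75) and Shmt1 (-0.39) had negative values that did not pass. Tk2, the mitochondrial thymidine kinase gene, rose (1.63 ± 0.30, edgeR adjusted p = 0.00153), as did the purine gene Adssl1 (1.02 ± 0.25, adjusted p = 0.00643). Nme1 shares 12.5% of its exon bases with the same-strand gene Gm20390, and Nme2 had too few counts to be tested.

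Of 11 regulators of entry into S phase 4 rose, 2 fell under TMM scaling and 5 did not pass. Among all genes tested 29.9% rose and 25.3% fell. The 11 had a median log2 fold change of 0.41, and 0.19 without treated pool 2. It was 0.72 with total-count scaling without haemoglobin genes and 2.38 when scaled to CD8 identity genes. The cyclin gene Ccnd1 rose from 0.995 ± 0.409 CPM untreated to 23.1 ± 7.88 CPM treated (SD, n = 3 each), a log2 fold change of 4.52 ± 0.41 (edgeR adjusted p = 3.65e-05). Ccnd3 (1.08 ± 0.25), Ccne2 (1.28 ± 0.29) and Skp2 (1.62 ± 0.33), a ubiquitin ligase gene that acts on cell cycle inhibitors, rose too. Cdk4 (-1.57 ± 0.22, edgeR adjusted p = 0.000320) and Cdk6 (-1.11 ± 0.21, adjusted p = 0.00186), the kinase genes whose products pair with D-type cyclins, fell under TMM scaling and turned positive when scaled to CD8 identity genes. With length and GC offsets Ccnd3 had 0.15 and did not pass (adjusted p = 0.657 by edgeR). Exons of Ccnd1, Cdk4 and Ccne2 overlap opposite-strand genes over 23.4%, 19.7% and 17.4% of their bases.

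**Figure D5:**
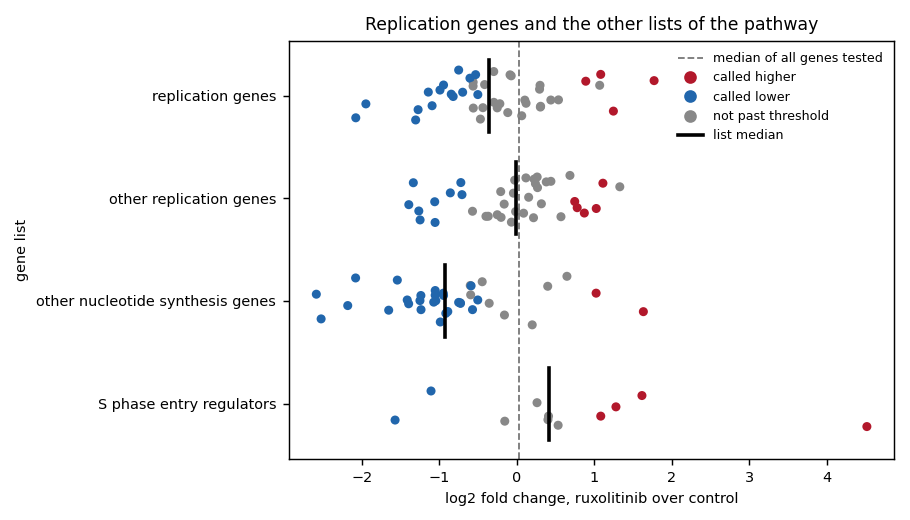
Log2 fold change, ruxolitinib over control under TMM scaling, of each tested gene (points, coloured by call) in the list of 42 and the 3 further lists, with list medians (black bars) and the median of all genes tested (dashed line). The nucleotide synthesis list is centred at -0.93, which becomes 0.98 when scaled to CD8 identity genes, and the other lists lie on both sides of the dashed line.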

How the data were processed

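The authors deposited raw read counts per gene, whole numbers with no normalization, with a gene length in bases and mm10 positions. Kit and aligner are named as NEBNext Ultra II (per the labels' protocols) and HISAT2 2.0.5 (per the submitters' processing notes). How reads were counted, with which strand setting, rule for shared reads and annotation, is not stated in the sources used here. Columns were assigned by sample title, and 0 were left over. The members and all lists were chosen with earlier results of these data known.

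The test was edgeR 4.0.16 (R 4.3.3) with filterByExpr, TMM factors and robust glmQLFit and glmQLFTest on group, adjusted by Benjamini-Hochberg over 13480 genes. An SE is the log2 fold change over the square root of F. Libraries held 13829808 to 17708196 counts, and genes of few reads carry the larger counting error. Values in every pool are printed, in each role, for the 3 members of smallest p, the one of highest level per kilobase and called members against the majority. In the 3 other lists the 4 called genes of smallest p in each direction are named; Cd8a and marker genes that fell or stood at 0 were named after their values were seen. Alternatives were RLE factors, no filter or 1 CPM in 3 libraries, DESeq2 1.42.0, limma-voom 3.58.1, removal of haemoglobin genes, scaling to 17 CD8 identity genes and leaving out each pool. Length and GC offsets (8 by 5 bins) and total-count scaling without haemoglobin genes were chosen after seeing the data. So was leaving out the 3 members with over 25% of exon bases overlapped (3 higher and 14 lower of 39 left). Those counts are from the TMM fit, where 29.9% of all genes tested were higher and 25.3% lower. Scaling to identity genes holds them constant by construction. Overlaps are from the GENCODE annotation of GRCm38 and promoters from RefSeq (GRCm38.p6). The values of 1 further marker gene are not reported here. Scripts were tested on simulated data.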

Additional observations from a re-analysis of the deposited data

How the results depend on the processing

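RLE factors, no filter, a filter of 1 CPM in 3 libraries, DESeq2, limma-voom and removal of haemoglobin genes before TMM gave 4 to 5 members higher and 13 to 17 lower. Over all genes these settings gave 3859 to 4596 higher and 3319 to 3595 lower, of 12819 to 23032 tested. Leaving out each pool gave 2 to 5 members higher, 8 to 18 lower, medians of -0.53 to -0.26 and a log2 ratio of the summed level of -0.53 to -0.27. It gave 2 to 7 other replication genes higher and 5 to 10 lower. Of the other nucleotide genes it gave 2 to 3 higher and 20 to 28 lower. It left the 4 higher and 2 lower counts of the entry regulators as they were. Over all genes tested it gave 3443 to 4482 higher and 2306 to 3831 lower. Log2 fold changes that changed sign without 1 pool ran from -0.34 to 0.033 for Mcm2, -0.26 to 0.032 for Mcm7, -0.062 to 0.26 for Gins3, -0.26 to 0.29 for Prim1, -0.31 to 0.023 for Tyms and -0.089 to 0.11 for the median of the other replication genes. No paired analysis was possible because the groups share no replicate number. Scaling to CD8 identity genes gave 31 members higher and 0 lower (median 1.59) and 31 and 0 other replication genes (1.99), by edgeR. It gave 13 and 0 other nucleotide genes (0.98), 9 and 0 entry regulators, and 9425 and 76 of all 13480 genes tested (1.96). Values that turned positive under it were Orc6 1.40, Mcm2 1.86, Mcm3 1.22, Mcm4 1.45, Mcm5 1.33, Mcm6 1.51, Mcm7 1.91, Cdc45 0.94, Gins1 1.16, Gins2 0.71, Gins4 1.68, Mcm10 1.48, Pcna 1.54, Rfc2 0.82, Rfc3 1.04, Rfc4 1.15, Rfc5 0.57, Pola2 1.37, Pold1 1.08, Pold2 0.61, Pold3 1.64, Rpa1 1.37, Lig1 1.70, Chaf1b 1.38, Tyms 1.86, Tk1 1.75, Gmnn 1.11, Pole4 0.52, Rnaseh1 0.66, Rnaseh2b 0.87, Rnaseh2c 0.70, Mthfd1l 0.41, Cdk4 0.32, Cdk6 0.79. Total-count scaling without haemoglobin genes gave 7 members higher and 8 lower (median -0.045) and 13 and 5 other replication genes (0.31). It gave 4 other nucleotide genes and 8 entry regulators higher. Of all 13474 genes tested it gave 5106 higher and 2236 lower (0.36). It turned Mcm2 0.22, Mcm7 0.24, Gins4 0.062, Pold3 0.025, Lig1 0.012, Tyms 0.19, Tk1 0.085. The log2 ratio of the summed level was -0.35, and -0.039 as a share of counts without haemoglobin genes. Length and GC offsets gave 14 other replication genes lower and turned Gins4 0.41, Rfc1 -0.051, Pole -0.35. Of all 13480 genes tested they gave 3778 higher and 3504 lower. With limma-voom the median of the other replication genes was 0.003. The cause of these changes was not tested. Depth limits Fen1 most, with 8 to 109 counts a library.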
